A study of Homo sapiens with 4 samples.

Results

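Iron enters most cells bound to transferrin, is held in ferritin when it is not in use, and leaves through ferroportin. The genes described here are 9 of the 57815 gene rows of an RNA-Seq table: the transferrin receptor TFRC, the importers SLC11A2 and SLC39A14, the ferritin chains FTH1 and FTL, the ferritin receptor NCOA4, the iron regulatory proteins ACO1 and IREB2, and the exporter SLC40A1. They were chosen by name, with the results of this contrast already known, so the differences between the groups are given as a description, and counts of members from the fit over the whole table support nothing. All 9 were found in the table, and 8 of them, all except SLC40A1, reached a mean of 1 FPKM over the libraries. FPKM is scaled for the length of the transcript and for the reads mapped in the library, so levels can be set beside each other between genes.

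The libraries came from HCT116, a human colorectal cancer cell line. Control cells (n = 2) were the parental line with wild-type genotype, and 3′ WRE-Mut cells (n = 2) carried a CRISPR/Cas9 deletion of TBE1, a TCF-binding element in the Wnt-responsive enhancer 3′ of MYC, on both alleles. Both groups grew in the same DMEM medium with serum, and polyA RNA was sequenced. Both 3′ WRE-Mut libraries came from 1 clone, so the deletion and other differences of that clone cannot be told apart, and the p-values measure the spread between these cultures only. MYC stood at 111 and 113 FPKM in control and at 48.0 and 34.2 FPKM in 3′ WRE-Mut libraries, which matches the labels. All 6 epithelial markers were at 24.3 FPKM or more in every library. CDH1 was higher and the other 5 were lower in both 3′ WRE-Mut libraries, with KRT18 at 697 and 496 FPKM in control and at 226 and 201 FPKM in 3′ WRE-Mut libraries. In contrast, the 3 leukocyte markers summed to at most 0.659 FPKM. The 3 erythroid markers summed to at most 1.42 FPKM. The 2 endothelial markers found, VWF and CDH5, summed to at most 0.266 FPKM, and PECAM1 was not found under that symbol. The 3 fibroblast markers summed to between 14.3 and 28.9 FPKM, nearly all of it COL1A1, which was higher in both 3′ WRE-Mut libraries. The part of these markers in the results was not tested. Fewer expressing cells and less RNA per cell cannot be told apart in bulk RNA.

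Cells match these genes to their iron supply largely after transcription. When iron is scarce, the iron regulatory proteins IRP1 and IRP2 bind short hairpins called iron-responsive elements. Bound in the 5′ UTR of ferritin and ferroportin transcripts they block translation, and bound in the 3′ UTR of the transferrin receptor transcript they protect it from decay. The table measures steady levels of transcripts, and neither their decay, their translation nor the binding of these proteins was measured. MYC is known to repress ferritin heavy chain and to activate transferrin receptor and IRP2 genes, as background from other cells.

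The elements were located as the letters CNNNNNCAGTGN, a bulged C followed by 5 bases, the 6-base loop and 5 bases able to pair with the first 5 (G with U counted as a pair), in the UTRs of the canonical GENCODE transcripts on their own strand. All 5 pairs formed in 4 of the 9 members (TFRC, FTH1, FTL and SLC40A1) and in 140 of 19894 protein-coding genes searched (0.704%). They are shown because their place, 5′ or 3′, is what sets TFRC apart from the ferritin chains and ferroportin. Each runs 5′ to 3′ on the transcript in DNA letters, read from GRCh37, with the bulged C and the loop in capitals. A match of letters describes the sequence and is no measurement of binding.

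The TFRC 3′ UTR, on the minus strand of chromosome 3, held 4 matches with all 5 pairs and another with 3 of 5. Any element with a different loop sequence could not be found by this search. The 4 with all 5 pairs, shown here, lay within 516 bases of each other and shared 16 of their 30 bases.
TFRC chr3:195777849-195777878: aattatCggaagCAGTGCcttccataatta
TFRC chr3:195777445-195777474: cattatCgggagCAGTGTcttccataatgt
TFRC chr3:195777380-195777409: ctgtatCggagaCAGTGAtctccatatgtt
TFRC chr3:195777333-195777362: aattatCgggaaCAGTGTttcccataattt

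The ferritin chains and ferroportin each held 1 match with all 5 pairs, in the 5′ UTR. FTH1 (minus strand) and FTL (plus strand) had the same base at 26 of 30 positions, and FTH1 and SLC40A1 (minus strand) at 13 of 30.
FTH1 chr11:61735045-61735074: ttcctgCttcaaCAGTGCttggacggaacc
FTL chr19:49468592-49468621: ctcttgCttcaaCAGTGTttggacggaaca
SLC40A1 chr2:190445386-190445415: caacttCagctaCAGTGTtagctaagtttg

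SLC11A2, whose 3′ UTR element is known to pair less completely, had 4 of 5 pairs on the minus strand of chromosome 12. The 3′ UTRs of ACO1 and IREB2 also held 1 match with 4 of 5 pairs each. Whether SLC39A14 held a partial match is not reported here. At least 4 pairs were found in 934 of the 19894 genes (4.69%).
SLC11A2 chr12:51382051-51382080: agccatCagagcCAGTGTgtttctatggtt

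In control cells the ferritin chains stood far above the other members. FTL averaged 2110 FPKM and FTH1 1555 FPKM, followed by NCOA4 at 27.9, TFRC at 21.9, SLC39A14 at 19.6, ACO1 at 13.5, IREB2 at 11.5, SLC11A2 at 10.7 and SLC40A1 at 1.11 FPKM. The libraries of TFRC and SLC39A14 overlapped in this order, and those of IREB2 overlapped with those of ACO1 and of SLC11A2, so these neighbours are not ordered beyond their spread. In 3′ WRE-Mut cells TFRC, at 89.1 FPKM, lay above NCOA4, at 50.1 FPKM, although their libraries overlapped, and IREB2 lay below SLC11A2.

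**Figure D1:**
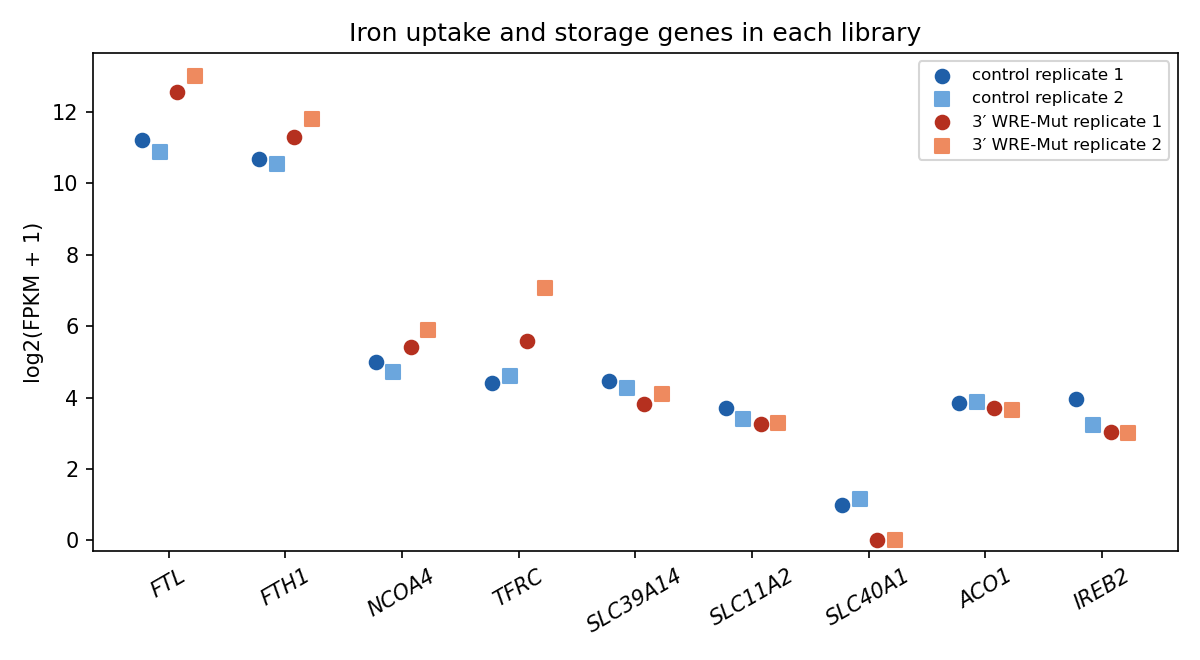
Level of each of the 9 genes as log2(FPKM + 1) in the 4 libraries, with blue symbols for control and red or orange for 3′ WRE-Mut (circle, replicate 1; square, replicate 2). Both 3′ WRE-Mut points lie above both control points for FTL, FTH1, NCOA4 and TFRC and below them for the other 5 genes.

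TFRC, the receptor that takes up iron-loaded transferrin, had the largest log2 difference among the 8 members with a mean of at least 1 FPKM, within its error of that of FTL. It was deposited with ID ENSG00000072274.8 at chr3:195754054-195809060 (hg19), a locus merged with those of 2 small neighbours. TFRC stood at 20.3 and 23.4 FPKM in control libraries and at 46.6 and 132 FPKM in 3′ WRE-Mut libraries. The groups did not overlap, but 3′ WRE-Mut replicate 2 lay far above replicate 1. The means were 21.9 ± 2.17 and 89.1 ± 60.2 FPKM (SD, n = 2 each), a 4.08-fold difference, and the log2 difference was 1.80 (SE 0.527). Without 3′ WRE-Mut replicate 2 the log2 difference was 1.06, and without 3′ WRE-Mut replicate 1 it was 2.54.

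The TFRC estimate of control replicate 1 carries the status FAIL in the deposited table, 1 of 11 such rows, all of that library, and its deposited bounds of 0 and 14.3 FPKM do not contain its own value of 20.3. Leaving this library out gave a log2 difference of 1.70, near the value with all 4. The bounds of 3′ WRE-Mut replicate 2, 4.44 and 259 FPKM, were the widest of the TFRC estimates. The deposited bounds of the groups overlapped for all 9 members.

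**Figure D2:**
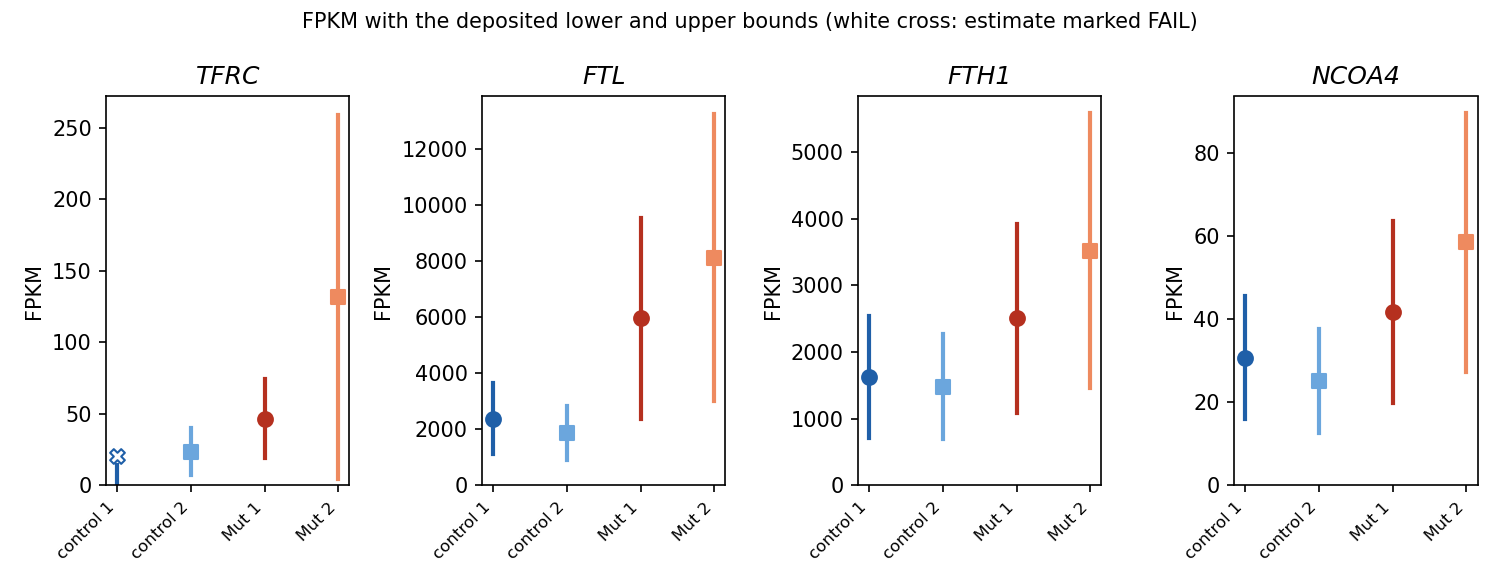
FPKM of TFRC, FTL, FTH1 and NCOA4 in each library (Mut, 3′ WRE-Mut), with vertical lines from the deposited lower to the deposited upper bound, each panel on its own axis from 0. The white cross marks the TFRC value of control replicate 1, 20.3 FPKM, above its own upper bound of 14.3 FPKM, and the lines of the groups overlap in all 4 panels.

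The importers of iron not bound to transferrin were lower in 3′ WRE-Mut cells by less. SLC39A14 (ZIP14), a surface importer of iron, zinc and manganese, stood at 21.0 and 18.2 FPKM in control libraries and at 13.2 and 16.1 FPKM in 3′ WRE-Mut libraries. The means were 19.6 ± 1.99 and 14.6 ± 2.08 FPKM (SD, n = 2 each), with a log2 difference of -0.40 (SE 0.213). SLC11A2 (DMT1), which moves ferrous iron across the gut brush border and out of endosomes, stood at 11.9 and 9.54 FPKM in control libraries and at 8.51 and 8.73 FPKM in 3′ WRE-Mut libraries. Its log2 difference was -0.28 (SE 0.213), and the lower control value lay close to both 3′ WRE-Mut values. Thus TFRC was the 1 member of uptake that was higher.

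FTL, the light chain that helps iron mineralise inside the ferritin shell (ENSG00000087086.9, chr19:49468558-49470135, hg19), stood at 2365 and 1855 FPKM in control libraries and at 5959 and 8130 FPKM in 3′ WRE-Mut libraries. The lowest 3′ WRE-Mut value was well above the highest control value. The means were 2110 ± 360 and 7044 ± 1535 FPKM (SD, n = 2 each), a 3.34-fold difference (log2 difference 1.73, SE 0.277), and leaving out any 1 library kept the log2 difference between 1.51 and 1.96.

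FTH1, the heavy chain with the ferroxidase activity that loads iron (ENSG00000167996.11), stood at 1630 and 1481 FPKM in control libraries and at 2507 and 3524 FPKM in 3′ WRE-Mut libraries. The means were 1555 ± 106 and 3015 ± 719 FPKM (SD, n = 2 each), a 1.94-fold difference (log2 difference 0.94, SE 0.257). FTH1 was deposited with chr11:61717293-61735132, a locus merged with BEST1 on the opposite strand. Reads of overlapping genes cannot be told apart without strand, and whether strand was used is not given in the sources used here. BEST1 was listed at 4.12 to 7.17 FPKM, against 1481 FPKM or more for FTH1.

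The ratio of the FTL and FTH1 transcripts differed between the groups along with their levels, while the chains themselves were not measured as protein. The FPKM of FTL over that of FTH1 was 1.45 and 1.25 in control libraries and 2.38 and 2.31 in 3′ WRE-Mut libraries. Together these transcripts made up 0.552% and 0.449% of the FPKM of all protein-coding genes in control libraries and 1.25% and 1.43% in 3′ WRE-Mut libraries. FTL ranked 46 and 50 among protein-coding genes in control libraries and 9 and 8 in 3′ WRE-Mut libraries, and FTH1 ranked 65 and 62, then 48 and 35.

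NCOA4, which carries ferritin to the lysosome so that its iron is released, stood at 30.7 and 25.2 FPKM in control libraries and at 41.7 and 58.5 FPKM in 3′ WRE-Mut libraries. The means were 27.9 ± 3.88 and 50.1 ± 11.9 FPKM (SD, n = 2 each), a 1.79-fold difference (log2 difference 0.81, SE 0.254). As a share of FTH1, NCOA4 was 1.88% and 1.70% in control libraries and 1.66% in each 3′ WRE-Mut library, so its level and that of FTH1 differed between the groups by similar factors. TFRC as a share of FTH1 was 1.25% and 1.58%, then 1.86% and 3.74%.

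Reads of the ferritin chains can also be assigned to their many processed copies. The table lists 41 FTH1P and FTLP rows, of which 7 reached a mean of 1 FPKM (FTH1P3, FTH1P7, FTH1P8, FTH1P15, FTH1P23, FTLP3 and FTLP14). The highest value of any of these was 8.57 FPKM, for FTH1P15 in 3′ WRE-Mut replicate 2. FTLP3 stood at 1.55 and 1.26 FPKM in control libraries and at 3.20 and 6.07 FPKM in 3′ WRE-Mut libraries, and FTLP14 was listed at 0 in both control libraries and at 1.07 and 4.69 FPKM in 3′ WRE-Mut libraries. These copies remain uncertain because they share sequence with FTH1 and FTL, and FTLP14, FTH1P3 and FTH1P23 reached the mean only through their 3′ WRE-Mut libraries.

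Of the iron regulatory proteins, ACO1 differed little between the groups, and IREB2 differed between its own control libraries. ACO1, which is IRP1 when it lacks its iron-sulfur cluster and a cytosolic aconitase when it holds it, stood at 13.50 and 13.53 FPKM in control libraries and at 12.09 and 11.63 FPKM in 3′ WRE-Mut libraries. Its log2 difference of -0.17 (SE 0.185) was the smallest among the 8 members. IREB2 (IRP2), which is degraded when iron is plentiful, stood at 14.6 and 8.31 FPKM in control libraries and at 7.20 and 7.12 FPKM in 3′ WRE-Mut libraries. Its log2 difference of -0.57 (SE 0.313) rests on control replicate 1, since it was -0.19 without that library and -0.94 without control replicate 2. The deposited lower bound of IREB2 was 0 in every library.

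SLC40A1, or ferroportin, the exporter of iron, was scarce throughout. It stood at 0.971 and 1.24 FPKM in control libraries, was at 0.00412 FPKM in 3′ WRE-Mut replicate 1 and was listed at 0 in replicate 2. Its deposited lower bounds were 0 in all 4 libraries, so no fold is given. Its mean was under 1 FPKM over the libraries and it did not enter the test.

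**Figure D3:**
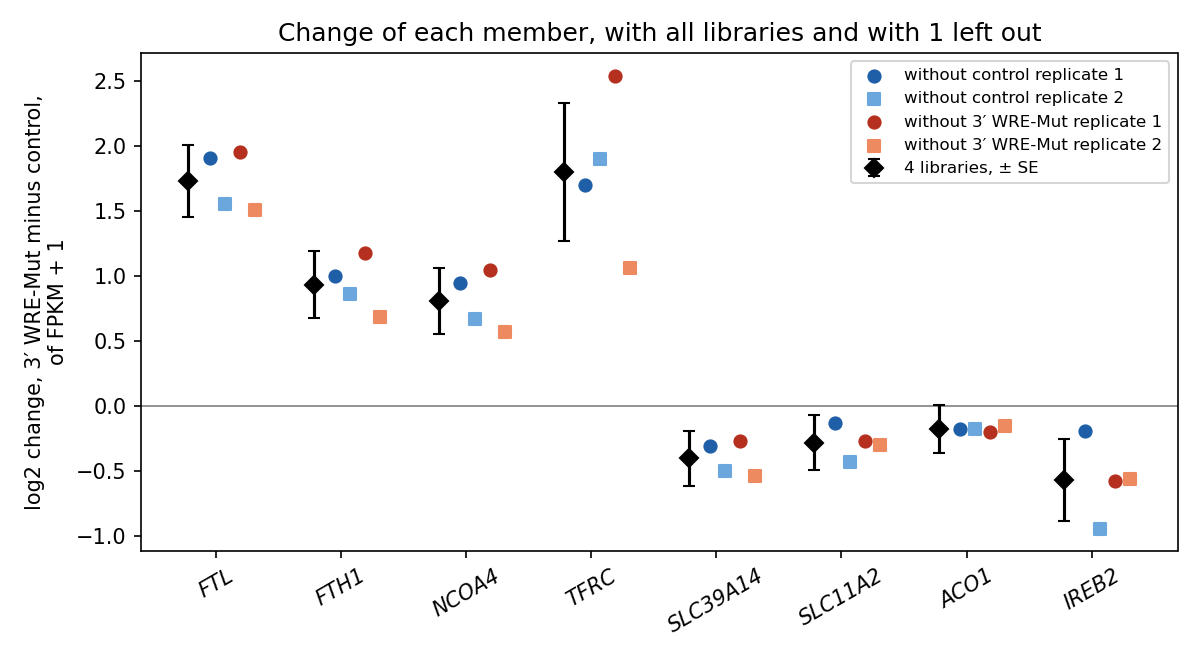
Log2 difference of FPKM + 1, 3′ WRE-Mut minus control, for the 8 members with a mean of at least 1 FPKM, with black diamonds for all 4 libraries (± SE from limma) and coloured points for the fits without 1 library. FTL, FTH1, NCOA4 and TFRC stay above 0 and the others below 0 in every fit, and TFRC spreads widest, from 1.06 to 2.54.

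In both 3′ WRE-Mut libraries 4 of the 9 members were above both control libraries and 5 were below. Over the 11709 protein-coding genes tested, 30.8% were higher in this way and 32.1% lower. Over all 14815 tested genes the limma test, with Benjamini-Hochberg adjustment, called 0.0877% of genes higher and 0.101% lower, and 0 of the 8 members. An unadjusted p under 0.05 was found for 11.0% of all tested genes in the higher and 11.2% in the lower direction, and for 4 and 0 of the members. Tested among protein-coding genes alone it called 4.01% higher and 4.30% lower, and 2 of the 8 members, TFRC and FTL, both higher. Since the members were chosen on this contrast, nothing is read from these counts. The median log2 difference was 0.32 over the 8 members and -0.03 over all tested genes. No member lay near 0.32, with 4 between 0.81 and 1.80 and 4 between -0.57 and -0.17.

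To place the 9 members among other genes of iron handling, 94 genes in 6 lists by function, members included, were drawn up, of which 81 reached a mean of 1 FPKM. Among the 73 that are not members, 2 rose and 2 fell in the test over protein-coding genes. That test called 4.01% of all protein-coding genes higher and 4.30% lower. In the test over all genes 0 of the 73 passed, and 10 higher and 6 lower had an unadjusted limma p under 0.05. Over all tested genes these shares were 11.0% and 11.2%. The median log2 difference of the 73 was -0.07, with 34 above 0 and 39 below. The lists were written with results of this contrast known, so these counts are a description.

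The 2 that rose both act on iron in mitochondria. SLC25A37 (mitoferrin 1), which brings iron into mitochondria, stood at 20.6 and 18.6 FPKM in control libraries and at 35.4 and 39.3 FPKM in 3′ WRE-Mut libraries (log2 difference 0.89, SE 0.190; limma adjusted p = 0.0497 over protein-coding genes and 0.161 over all genes). ISCU, the scaffold on which iron-sulfur clusters are built, stood at 59.3 and 61.7 FPKM in control libraries and at 103 and 151 FPKM in 3′ WRE-Mut libraries (log2 difference 1.03, SE 0.25; limma adjusted p = 0.0448 and 0.165).

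Of the 2 that fell, CPOX had a larger log2 difference than any of the 8 tested members. CPOX, the coproporphyrinogen oxidase of haem synthesis, stood at 123 and 158 FPKM in control libraries and at 27.8 and 14.4 FPKM in 3′ WRE-Mut libraries, 6.65-fold lower (log2 difference -2.74, SE 0.367; limma adjusted p = 0.00602 over protein-coding genes and 0.136 over all genes). CUL1, the cullin of the SCF ubiquitin ligase that with FBXL5 degrades IRP2, stood at 9.98 and 8.61 FPKM, then at 3.76 and 1.35 FPKM (log2 difference -1.62, SE 0.403; limma adjusted p = 0.0384 and 0.166). FBXL5, the iron-sensing subunit of that ligase, stood at 9.41 and 8.001 FPKM, then at 7.35 and 9.09 FPKM, and its groups overlapped. FBXL5 was named after its values were seen. Among protein-coding genes, CPOX passed in all 7 further fits (limma adjusted p at most 0.0194), whereas CUL1 and SLC25A37 passed in 5 and ISCU in 4, and none of these 3 passed without control replicate 1 or without control replicate 2.

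By list, over protein-coding genes, 1 of 13 tested genes of transferrin and haem-free uptake passed, which was TFRC itself, and the ferrireductase STEAP3, next by the moderated statistic over all genes, stood at 6.46 and 6.12 FPKM, then 4.12 and 3.26 FPKM (limma adjusted p = 0.151). Among 16 iron and haem transporters only SLC25A37 passed. Among 8 genes of storage, ferritinophagy and iron chaperones only FTL passed, and HERC2, a ligase that targets NCOA4, stood at 26.4 and 23.8 FPKM, then 13.8 and 12.3 FPKM (limma adjusted p = 0.0539). Among 8 genes of iron sensing only CUL1 passed. EPAS1 (HIF-2α) stood at 29.95 and 24.71 FPKM, then 44.9 and 46.8 FPKM (limma adjusted p = 0.0802). Its 5′ UTR is known to hold an iron-responsive element, but the search above did not find all 5 pairs in it. The list genes outside the members with all 5 pairs were ALAS2 and TF. Among 24 genes of iron-sulfur cluster assembly only ISCU passed, with the glutaredoxin GLRX5 at 44.03 and 33.57 FPKM, then 58.6 and 81.4 FPKM (limma adjusted p = 0.0794). Among 12 genes of haem synthesis and breakdown only CPOX passed, and ALAD stood at 6.91 and 6.16 FPKM, then 8.89 and 10.4 FPKM (limma adjusted p = 0.236).

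**Figure D4:**
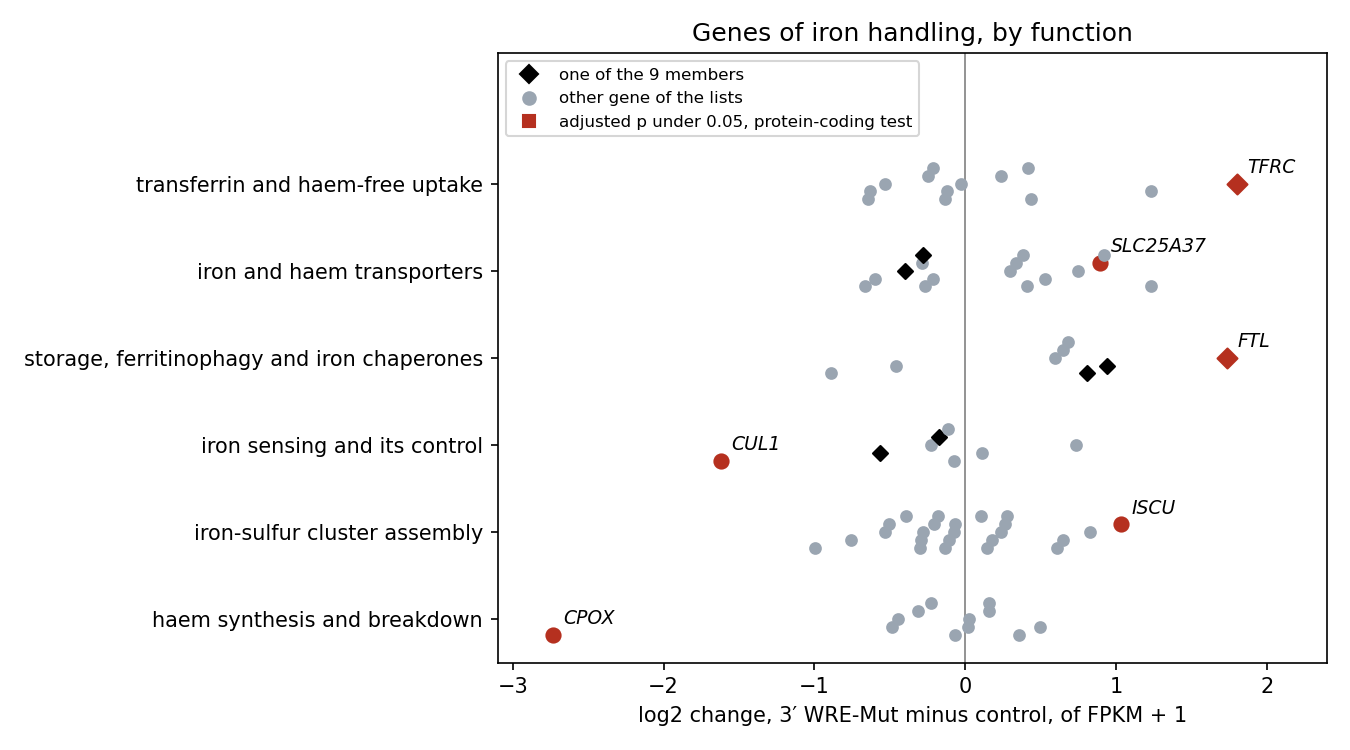
Log2 difference of FPKM + 1, 3′ WRE-Mut minus control, for the 81 tested genes of the 6 lists, 1 point per gene, with diamonds for members and red for genes past the threshold among protein-coding genes. Points of each list lie on both sides of 0, with CPOX (-2.74) and CUL1 (-1.62) lowest and TFRC (1.80) and FTL (1.73) highest.

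Among 11708 other protein-coding genes, those whose pattern over the 4 libraries was nearest to that of TFRC were KLHL24, FAM126B and EPT1, at Euclidean distances of 0.0388, 0.138 and 0.170 on log2(FPKM + 1) minus the control mean. KLHL24 stood at 6.19 and 6.99 FPKM in control libraries and at 14.6 and 43.4 FPKM in 3′ WRE-Mut libraries. The genes were picked on these same libraries, so their likeness to TFRC is a description.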

How the data were processed

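The deposited table held Cufflinks FPKM values (fragments scaled for transcript length and mapped reads) that the authors made from polyA RNA single reads of 4 HCT116 libraries: reads were quality-filtered, aligned to hg19 with TopHat2 2.0.9 and assigned to Gencode genes. Cufflinks 2.2.1 and CASAVA 1.8.2 are credited to the submitters' processing notes, while the methods of the study name an earlier Cufflinks version. A second deposited file, the authors' own comparison (fold changes and p-values), was not used. No counts were used, so the depth is unknown in reads and no interval for counting error was given. The spacing of low values put the libraries at 0.966 to 1.33 times the depth of control replicate 1. These ratios are rough, since only 359 of 1827 genes stood at the ratio of control replicate 2. For 3′ WRE-Mut replicates 1 and 2 it was 312 of 1956 and 329 of 1657 genes.

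Values were tested as log2(FPKM + 1) with limma 3.58.1 in R 4.3.3 (moderated test with a variance trend, two-sided, Benjamini-Hochberg adjustment, threshold 0.05), over genes averaging 1 FPKM or more, and again over the protein-coding genes alone, whose class came from Gencode v44lift37. Differences on this scale understate the change of low genes. The alternatives were other pseudocounts, filters, scalings and fits, and leaving out each library. The members and the lists of iron genes were chosen with earlier results of these data known. The genes named were all members, in each list those past the threshold and the 2 with the largest moderated statistic, the near copies of ferritin with a mean of at least 1 FPKM, and the 3 genes nearest to TFRC. One gene that this rule names is not reported here.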

Additional observations from a re-analysis of the deposited data

How the results depend on the processing

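All 8 tested members kept the direction of their log2 difference under each of 20 alternative settings, of which the 7 that combine the protein-coding restriction with another choice were chosen after seeing the data. Over all genes, 0 members and 0 genes of the iron lists passed, also without any 1 library, except that quantile normalization gave 1 member and 1 list gene higher (FTL). Restricting the test to protein-coding genes moved the calls over the table from 13 higher and 15 lower to 470 and 503, and gave 2 members and 4 list genes higher and 2 list genes lower. Within protein-coding genes, median-ratio scaling again gave 2 members, 4 list genes higher and 2 lower, and quantile normalization gave 3, 6 and 3. Leaving out 1 library there gave 0 to 4 members, 0 to 15 list genes higher and 1 to 10 lower, where the lowest counts came without control replicate 1 or control replicate 2 (0, 0 and 1 for each) and the highest without 3′ WRE-Mut replicate 1 (4, 15 and 10). In such fits the lone library of a group is assumed to vary like the other group. Over all tested genes the calls were 13 and 15, against 0 and 0 with no filter, 22 and 40 with a mean of at least 5 FPKM, 23 and 37 with a pseudocount of 0.1 and 15 and 25 with 0.5, 0 and 0 without either control library, and 184 and 10 or 178 and 5 without 3′ WRE-Mut replicate 1 or 2.

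The replicate numbers are shared between the groups, but same-numbered libraries correlated at 0.110 in their deviations from the group means, and 2 pairs do not show pairing. With the replicate number as a block, 0 members and 0 list genes passed over all genes, with 11 genes higher and 14 lower in all. Among protein-coding genes the block gave 3 members, 11 list genes higher and 5 lower, and 1292 and 1593 calls over the table. With 2 libraries a group an exact permutation test of 1 gene cannot go below p = 0.333, and the absence of counts leaves the counting error of low genes such as SLC40A1 unknown.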
